A study of Mus musculus with 3 samples.

Results

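Malat1 and Neat1 are long non-coding RNA genes that lie next to each other on mouse chromosome 19. The regions called in Runx1 immunoprecipitations at their locus are described here. Members were chosen by the gene the authors assigned and by position. A region belonged to the locus if it was assigned to Malat1, Neat1 or Gm20417, or if it started between 5.78 and 5.86 Mb of chromosome 19 (GRCm38). Because the locus was proposed with earlier results of these data in view, the values below describe it, and no test was run on them. The rule found 20 of the 15286 regions in the 3 lists: 3 of 451 in replicate 1, 9 of 1641 in replicate 2 and 8 of 13194 in replicate 3.

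The samples were chromatin immunoprecipitations (ChIP) with sequencing, made with a rabbit polyclonal antibody against Runx1, a transcription factor that binds DNA and is best known from blood formation and myeloid cells. Spinal cord cells came from male C57BL/6J mice 8 to 10 weeks old, were fixed in pools of 5 cords, and were combined so that each immunoprecipitation held chromatin of 10 cords (about 10 µg of chromatin, 9 µg of antibody). The 3 replicates form 1 group, without a treatment or an untreated comparison in the labels used here, and the labels do not say how animals were divided among them. The cells were not sorted, so a region cannot be traced to one cell type of the cord. For replicate 3 the tissue field holds the antibody, and its title gave the group.

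Both transcripts stay in the nucleus and are abundant in many tissues. Malat1 RNA gathers at nuclear speckles, bodies rich in splicing factors, and processing of its 3′ end releases a small tRNA-like RNA called mascRNA. Neat1 RNA is the scaffold of paraspeckles, nuclear bodies built around RNA-binding proteins such as NONO and SFPQ. It has a short form and a long form that begin at the same start site. Both genes are read from the minus strand, so their starts are at the higher coordinate.

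RefSeq places Malat1 at 5795690 to 5802672 (6983 bp) and Neat1 at 5824708 to 5845480 (20773 bp), with 42.8 kb between their starts. Gm20417 (5797562 to 5798549 in the authors' table) is a transcript on the plus strand that lies wholly inside Malat1. Sequenced chromatin has no strand, so signal over Gm20417 and signal over Malat1 cannot be told apart. On the plus strand, Frmd8os, an antisense transcript, starts at 5845623, only 143 bp from the Neat1 start, and overlaps the end of the protein-coding gene Frmd8 (5850974 to 5875269), which the authors' table places on the minus strand. The RefSeq promoter of Malat1 (GRCm38.p6, chr19:5802623-5802922, minus strand) is shown because regions of replicates 2 and 3 covered all 300 of its bases. Capitals mark the first 50 transcribed bases, and the lower-case letters are the 250 bases before the start.

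Malat1: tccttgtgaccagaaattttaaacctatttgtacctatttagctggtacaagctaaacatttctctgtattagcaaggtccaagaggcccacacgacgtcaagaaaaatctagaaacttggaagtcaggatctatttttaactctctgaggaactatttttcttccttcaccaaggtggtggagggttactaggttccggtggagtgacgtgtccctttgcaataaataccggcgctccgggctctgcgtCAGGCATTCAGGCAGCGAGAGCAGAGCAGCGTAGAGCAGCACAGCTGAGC

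The window holds 47.0% G and C. The RUNX core was searched as TGTGGT and TGCGGT, and the E-box, a site of basic helix-loop-helix factors, as CACGTG, each on both strands. The Malat1 window held 0 matches to each of them. Of 27025 RefSeq promoters of the same length, 16.9% held TGTGGT, 6.43% held TGCGGT, 22.5% held at least 1 of these 2 forms and 7.24% held CACGTG. The absence says only that these letters are not in this window. In replicate 1 the nearest region began 349 bp upstream of the window, and it covered 0 of the 300 bases.

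Regions were called at or just upstream of both starts in every replicate, and their extent was smallest in replicate 1 and largest in replicate 3. The region upstream of Malat1 in replicate 1 was a weak call and was lost at q of at most 1e-05. The locus had 4 summits and 1544 bp of called sequence in replicate 1, 19 summits and 10781 bp in replicate 2, and 50 summits and 23545 bp in replicate 3. Mean widths were 515 bp, 1198 bp and 2943 bp, and median widths 596 bp, 869 bp and 1122 bp. Across replicates the locus held 6.67 ± 3.21 regions (SD, n = 3) and 11957 ± 11048 bp (SD, n = 3), so the spread of the covered length was nearly as large as its mean. Median widths over each whole list were 335 bp, 425 bp and 470 bp, below those of the locus. The authors' fold, the peak caller's enrichment of a summit over its background, ran from 3.04 to 6.67 at the locus in replicate 1, from 2.55 to 11.2 in replicate 2 and from 2.63 to 17.3 in replicate 3. These folds rank summits within their own list and were not compared in size between replicates.

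**Figure D1:**
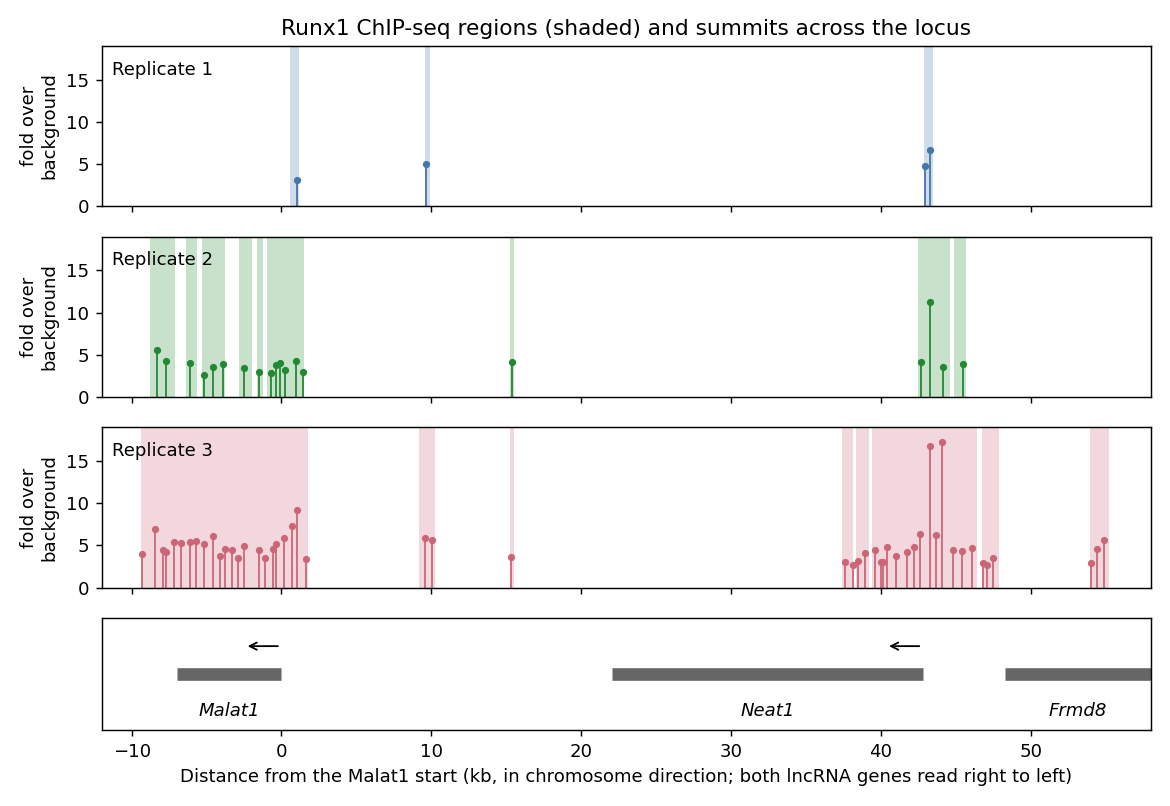
Called regions (shaded) and the authors' fold over background at each summit (points) in replicates 1, 2 and 3, against distance in kb from the Malat1 start; grey bars are RefSeq genes and arrows give the direction of Malat1 and Neat1. Replicate 3 has 50 summits and covers Malat1 from end to end, while replicate 1 has 4 summits. The highest folds of the locus (6.67, 11.2 and 17.3 in replicates 1, 2 and 3) stand 483, 458 and 1291 bp upstream of the Neat1 start.

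The highest fold of the locus stood just upstream of the Neat1 start in every replicate. In replicate 1 the region there (5845539 to 5846153, 615 bp) had 2 summits with folds of 4.70 and 6.67. In replicate 2 it spanned 5845187 to 5847309 (2123 bp) with 3 summits and a highest fold of 11.2. In replicate 3 it spanned 5842114 to 5849074 (6961 bp) with 14 summits and a highest fold of 17.3. By fold these regions ranked 67 of 451, 4 of 1641 and 8 of 13194 in their lists, and the region of replicate 1 therefore stood lower in its list than those of the other two.

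One summit upstream of Neat1 recurred at nearly the same position in all replicates. The strongest upstream summit of replicate 1 was matched to the summit nearest to it in each other replicate. It lay 483 bp upstream of the Neat1 start in replicate 1 (5845963), 458 bp upstream in replicate 2 (5845938) and 446 bp upstream in replicate 3 (5845926). The mean was 462 ± 18.9 bp (SD, n = 3), and the summits spanned 37 bp. Because the nearest summits were taken, this spread is narrowed by the choice. Neighbouring summits of the region of replicate 3 were 134 to 727 bp apart, with a median of 468 bp. The fragment pileup at these summits, solved from the deposited fold and p, was 29 in replicate 1 (95% exact Poisson interval 19.4 to 41.6), 57 in replicate 2 (43.2 to 73.9) and 135 in replicate 3 (113 to 160). The matching background levels were 3.50, 4.18 and 7.08 fragments. Intervals cover counting error only, and the pileups were not scaled to depth.

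A further summit stood farther upstream in replicates 2 and 3. In replicate 3 it lay 1291 bp upstream of Neat1 (5846771) at fold 17.3 and pileup 115 (interval 94.9 to 138), which overlaps the interval of the summit at 446 bp. In replicate 2 it lay 1316 bp upstream (5846796) at fold 3.48 and pileup 34 (23.5 to 47.5), over a background of 9.06 fragments. The pair thus had like folds in replicate 3 and unlike folds in replicate 2, where the background was higher under the outer summit than under the inner one (4.18). Replicate 1 had no called summit there, which does not show that binding was absent.

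The authors assigned none of these regions to Neat1. They gave the regions over its start to Frmd8os, whose start lies on the other side of the shared promoter. The recurrent summit fell 340 bp, 315 bp and 303 bp downstream of the Frmd8os start in replicates 1, 2 and 3, so it lay inside the first part of Frmd8os and upstream of Neat1. By assigned symbol Neat1 had regions in 0 of 3 replicates, and by a region over the RefSeq gene with 1 kb around it, in 3 of 3. The second measure was chosen after the data were seen. Gm27702 and Gm27533, small RNA entries within or beside Neat1, received 4 more regions between them.

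Little of the Neat1 body was called, and what was called lay at its 5′ end. Replicate 1 covered 0 bp of the body, replicate 2 covered 294 bp (1.42%) and replicate 3 covered 4921 bp (23.7%). In replicate 3 the first 5 kb of the gene, a length chosen after the values were seen, were covered to 91.0% with 11 summits, whose folds ran from 2.63 to 6.37. The remaining 15773 bp, toward the 3′ end, were covered to 2.36% and had 1 summit with a fold of 3.03. The body summits of replicate 3 had pileups of at most 42 (interval 30.3 to 56.8), below the intervals of both upstream summits. Outward from the promoter, replicate 3 added a region over Frmd8os at 5849393 to 5850550 with a fold of 3.51, and replicate 2 one at 5847583 to 5848335 with a fold of 3.84.

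**Figure D2:**
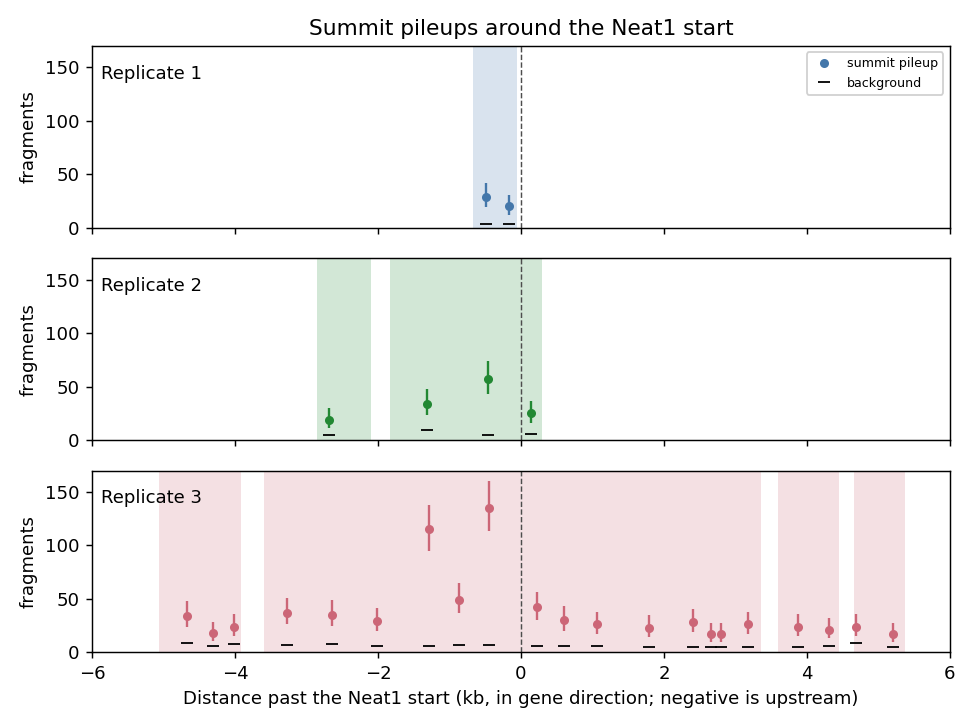
Fragment pileup at each summit (points, with 95% exact Poisson intervals as bars) and its background level (dashes), against distance in kb past the Neat1 start in the direction of the gene, in replicates 1, 2 and 3; shading marks called regions. A summit 446 to 483 bp upstream recurs in the 3 replicates with pileups of 29, 57 and 135, and the gene body of replicate 3 stays at 42 fragments or below.

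At Malat1, regions ran along the gene as well as upstream of it in replicates 2 and 3, but not in replicate 1. In replicate 3 the first 5 kb of Neat1 were covered to a like extent (91.0%), and Neat1 is the longer gene. In replicate 2 those 5 kb were covered to 5.88% only. In replicate 3 a single region of 11190 bp (5793276 to 5804465) with 23 summits covered all 6983 bp of the gene, and it was the region of rank 7 by width among 13194. In replicate 2 the gene was covered to 64.3% by 5 regions, and 1 more lay past its end. The widest of them, 2452 bp at 5801735 to 5804186, ran across the Malat1 start with 6 summits and ranked 19 of 1641 by width. In replicate 1 the body was not covered, and a single 596 bp region (5803271 to 5803866) lay upstream of the start.

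The summit upstream of Malat1, matched in the same way and with the same limit, also recurred. It lay 1029 bp upstream of the start in replicate 1 (5803701), 954 bp upstream in replicate 2 (5803626) and 1055 bp upstream in replicate 3 (5803727), a mean of 1013 ± 52.4 bp (SD, n = 3). Pileups were 22 (interval 13.8 to 33.3), 40 (28.6 to 54.5) and 82 (65.2 to 102) fragments. In replicate 3 the interval of this summit lay above those of all 14 summits in the body, the highest of which ended at 63.6. In replicate 2 it overlapped those of the body, which reached 47.5, so the upstream summit could not be separated from the gene body at this depth.

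The folds of the upstream summit were 3.04, 4.25 and 9.20, and the first was the lowest of all 451 regions of replicate 1. The background beneath it was 6.56 fragments, against a median of 3.47 over all summits of that replicate. In replicate 2 the median background over the Malat1 body was 7.82 fragments, against a median of 4.12 over all summits. In replicate 3 it was 5.96 over the body, against 5.66 over all summits, but higher at both sides, with medians of 7.55 in the 2 kb upstream and 7.95 in the 2 kb past the end. Under the upstream summit itself it was 8.65 fragments in replicate 2 and 8.02 in replicate 3, so in each replicate it stood above the median over all summits. Because fold is a ratio to this background, a high background lowers the fold of a given pileup. Whether the background came from a control library or from the ChIP library itself was not stated in the sources used here. The part of the background in the ranks of these regions was not tested.

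Within the Malat1 body, summit pileups ran from 22 (interval 13.8 to 33.3) to 34 (23.5 to 47.5) in replicate 2. In replicate 3 they ran from 24 (15.4 to 35.7) to 48 (35.4 to 63.6). The 9 body summits of replicate 2 had folds from 2.55 to 3.99 (median 3.56), and the 14 of replicate 3 had folds from 3.50 to 6.12 (median 4.75). Neighbouring summits of the 11190 bp region of replicate 3 were 206 to 1043 bp apart, with a median of 516 bp. Past the 3′ end, within 2 kb of the gene, the highest folds were 5.50 in replicate 2 (5794368) and 6.93 in replicate 3 (5794220), and the first of these was the highest fold of replicate 2 around Malat1. The 58 bp mascRNA (5795924 to 5795981) was covered in full in replicate 3, which had 1 summit inside it with a fold of 5.28 (5795972). It was not covered in replicates 1 and 2.

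**Figure D3:**
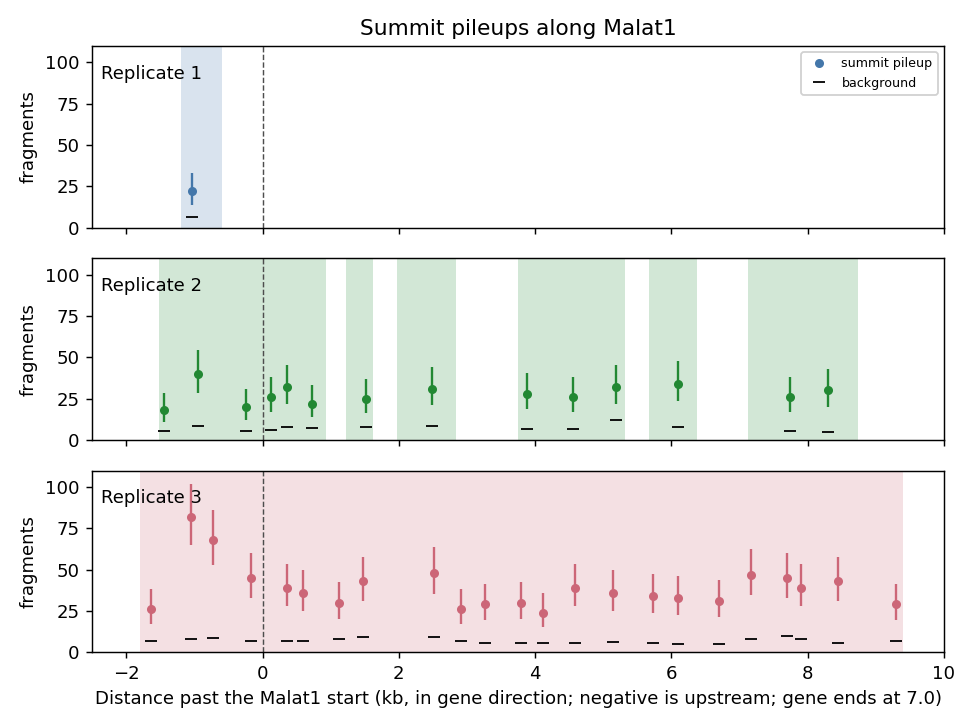
Fragment pileup at each summit (points, with 95% exact Poisson intervals as bars) and its background level (dashes), against distance in kb past the Malat1 start in the direction of the gene, in replicates 1, 2 and 3; shading marks called regions. The summit 954 to 1055 bp upstream is the highest in replicate 3 (82 fragments), where 14 further summits run along the gene, and replicate 1 has 1 summit only.

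The assigned names split one stretch of signal over several genes. The 11190 bp region of replicate 3 was assigned to Gm20417, as was a 1576 bp region of replicate 2 (5797346 to 5798921, highest fold 3.90), so Gm20417 had a region in 2 replicates. Other regions inside Malat1 in replicate 2 were assigned to Gm27694, a miscellaneous RNA entry (5799826 to 5800694, fold 3.47), and to Gm37376, an entry of unclassified type (5801048 to 5801448, fold 2.95). By assigned symbol Malat1 kept 2, 3 and 1 regions in replicates 1, 2 and 3, and the only one in replicate 3 lay in distal intergenic sequence. Of 12727 RefSeq long non-coding RNA genes, 0.181% had an assigned region in all 3 replicates, Malat1 among them. By a region over the gene with 1 kb around it, 0.581% did, Malat1 and Neat1 among them.

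Between the genes, 2 distal intergenic sites were called, each in 2 replicates. The first had a fold of 5.05 in replicate 1 (5812219 to 5812551) and of 5.85 in replicate 3 (5811821 to 5812907), with best summits 9.68 and 9.61 kb upstream of the Malat1 start. The second had a fold of 4.15 in replicate 2 (5817895 to 5818179) and of 3.68 in replicate 3 (5817903 to 5818175), at 15.4 and 15.3 kb. Neither was called in the remaining replicate. Distal intergenic regions made up 7.32%, 7.62% and 9.67% of all regions of replicates 1, 2 and 3. The last region of the window, in replicate 3 alone, lay over an exon of Frmd8 (5856614 to 5857935, fold 5.67).

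Overlap of at least 1 bp between replicates was counted next, each count beside the share over the whole list. Replicate 1 had 3 regions at the locus, of which 2 met one in replicate 2 (whole list 55.2%) and 3 met one in replicate 3 (94.7%). Replicate 2 had 9, of which 9 met one in replicate 3 (92.1%) and 2 met one in replicate 1 (14.8%). Replicate 3 had 8, of which 3 met one in replicate 1 (3.11%) and 3 met one in replicate 2 (10.4%). The counts against replicate 3 were near the share of the whole list. The regions shared by all replicates were those at the 2 starts, 2 in each list, against 54.5%, 14.6% and 1.81% of all regions. The wide regions of replicate 3 each met several regions of replicate 2, 6 at Malat1 and 2 at the Neat1 start, and a wide region meets others more readily.

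Positions of summits were compared more narrowly, within 100 bp. Of the 4 locus summits of replicate 1, 2 lay that close to a summit of replicate 2 (38.0% over the whole list) and 3 to one of replicate 3 (72.6%). Of the 19 summits of replicate 2, 13 lay that close to a summit of replicate 3 (57.2% over the whole list), and 1 of them fell on the same base (5802309, in the Malat1 body). With 50 summits at the locus in replicate 3, a near neighbour is easily found, and these counts do not separate recurrence from density.

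Width and covered length were ranked within each list. Regions of at least 2 kb made up 0% of replicate 1, 1.95% of replicate 2 and 2.69% of replicate 3. At the locus 0 of 3, 2 of 9 and 2 of 8 regions were that wide, and all 4 lay over a start of Malat1 or Neat1. Over the RefSeq gene with 1 kb around it, Malat1 had 402 bp, 6345 bp and 8983 bp covered. Among coding and long non-coding RNA genes that had any region this was rank 190 of 534, 6 of 1659 and 57 of 9694. Neat1 had 615 bp, 1294 bp and 5921 bp covered, ranks 62, 117 and 139. By highest fold, Neat1 ranked 85, 5 and 11 and Malat1 534, 172 and 243. This fold was that of the whole region, also where its summit lay beyond the 1 kb. For Malat1 the summits lay 1029 bp upstream, 1322 bp past the end and 1055 bp upstream in replicates 1, 2 and 3. For Neat1 in replicate 3 it lay 1291 bp upstream. By these unlike measures, in the 2 larger lists Malat1 ranked higher by covered length than by fold. Neat1 ranked higher by fold than by covered length.

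**Figure D4:**
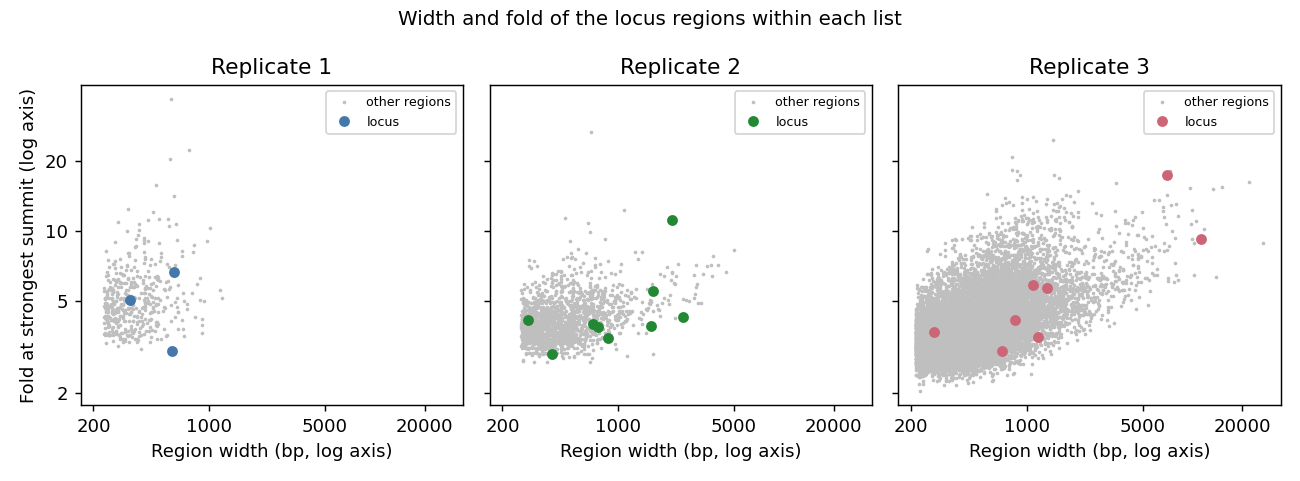
Width in bp (log axis) against the fold at the strongest summit (log axis) for every region of replicates 1, 2 and 3, with regions of the locus as large points and all others in grey. The Neat1 start regions lie near the top of replicates 2 and 3 (folds 11.2 and 17.3), the 11190 bp Malat1 region lies at the far right of replicate 3, and the lowest point of replicate 1 (fold 3.04) is the region upstream of Malat1.

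Genes with the most similar covered lengths in the 3 replicates were ranked by the distance between their log2(bp + 1) values. By the authors' assignment the 5 nearest to Malat1 included 2410080I02Rik (distance 2.11), B930059L03Rik, Pou3f3 and Lnpep (2.35). Measured over the RefSeq gene, an alternative chosen after the data were seen, they were Bahcc1 (distance 0.483), Zfp608, Glul, Gm4258 and Chd2 (0.864). Bahcc1 had 345 bp, 4894 bp and 10404 bp covered, with highest folds of 3.64, 8.15 and 15.2. For Neat1 no ranking by assignment was possible, since it was listed at 0 in every replicate. Over the RefSeq gene its nearest were Hoxd3os1 (distance 0.205; 574 bp, 1212 bp and 5325 bp), Rcbtb1, Atf7ip, Slc38a2 and Zc3h4 (0.448). The rankings rest on 3 values per gene and say nothing of shared function.

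Genes for proteins of paraspeckles and nuclear speckles also had regions, most of them in replicate 3. Of 30 genes listed for paraspeckle proteins, 1, 6 and 24 had an assigned region in replicates 1, 2 and 3. Of all coding genes, 1.51%, 5.17% and 31.5% had one. In at least 2 replicates 6 of 30 (20.0%) did, against 5.43% of coding genes. Aff4, which encodes a scaffold of the super elongation complex, had regions in all 3 with folds of 10.8, 7.27 and 5.94. It was the only gene of the list with a region in replicate 1, and its place among paraspeckle proteins was not examined here. Matr3 (folds 3.15 and 6.91), Hnrnpk (3.40 and 5.37) and Zc3h6 (3.63 and 5.08) had them in replicates 2 and 3. The first 2 of these encode nuclear RNA-binding proteins. Over the 24 genes with a region in replicate 3, the median of the highest fold was 4.28, against 4.04 over all 6887 coding genes with one.

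Of 20 genes for nuclear speckle and Malat1-associated proteins, 1, 6 and 20 had an assigned region in replicates 1, 2 and 3, and 6 (30.0%) had one in at least 2. The shares over all coding genes were 1.51%, 5.17% and 31.5% in the single replicates and 5.43% in at least 2. Srrm2, which encodes a large core protein of nuclear speckles, had folds of 4.45, 5.35 and 5.32. Hnrnpc (3.31 and 6.46), Hnrnpl (4.54 and 6.29) and Srrm1 (4.18 and 5.62) had regions in replicates 2 and 3. Hnrnpc and Hnrnpl encode RNA-binding proteins of pre-mRNA, and Srrm1 a splicing coactivator. The median of the highest fold in replicate 3 was 4.01, against 4.04 over all coding genes with a region. Leaving out replicate 2 or replicate 3 reduced the count over both others to 1 gene in each protein list. It could not have been higher, since replicate 1 had a region for only 1 gene of each. At q of at most 1e-05 the counts in at least 2 replicates were 1 paraspeckle and 2 nuclear speckle genes. Both protein lists hold mostly genes active in nearly all cells, and no set of genes matched for activity was compared.

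Several other long non-coding RNA genes of the nucleus or of neural tissue had regions as well. Of 23 such genes, 3, 6 and 14 had an assigned region in replicates 1, 2 and 3, where 0.393%, 0.911% and 4.86% of all long non-coding RNA genes had one. In at least 2 replicates 8 (34.8%) did, against 0.911%, but the list holds well-studied RNAs picked by name. Assignment by symbol also reaches fewer long non-coding RNA genes. Over the RefSeq gene with 1 kb around it, 116, 296 and 1704 of 12727 had a region in replicates 1, 2 and 3. By that measure 9 genes of the list had one in at least 2 replicates, and the matching share over all genes is not given here. Peg13, an imprinted RNA, had regions in all 3 replicates with folds of 4.47, 3.98 and 2.91. Snhg11 had folds of 8.88 and 10.4 in replicates 1 and 3, Sox2ot, which overlaps Sox2, 5.78 and 10.0 in replicates 2 and 3, and Dleu2 3.71 and 8.55 in the same replicates. Assigned regions of Sox2ot summed to 9920 bp in replicate 3, and those of Peg13 to 271 bp. The nuclear RNAs Xist, Meg3 and Kcnq1ot1 had none. The count of 8 fell to 3 genes without replicate 2, to 1 without replicate 3 and to 3 at q of at most 1e-05. Without replicate 2 or 3 it could not exceed 3, the list genes with a region in replicate 1.

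Of 14 neighbouring genes, 1, 1 and 7 had an assigned region in replicates 1, 2 and 3, where 1.51%, 5.17% and 31.5% of all coding genes had one. In at least 2 replicates 1 of 14 (7.14%) did, against 5.43% of coding genes. Rela, which encodes a subunit of the transcription factor NF-kB, was the one with regions in all 3 replicates (folds 4.80, 3.86 and 2.89), and its region was the nearest below the window in replicates 1 and 2, 143 kb from its edge. Map3k11, Frmd8 and Pola2 had regions in replicate 3 alone, with folds of 6.95, 5.67 and 5.33. The nearest region above the window was at Tigd3 in replicate 3 (fold 2.97, 33.9 kb from the edge), at Sac3d1 in replicate 1 (fold 3.94, 258 kb) and at Naa40 in replicate 2 (fold 3.83, 1381 kb). Just inside the upper edge, the last region was that of Frmd8 in replicate 3, 3.39 kb from it, and one assigned to Frmd8os in replicates 1 and 2, 14.5 kb and 12.4 kb from it. Inside the lower edge, the first were the regions at or beside Malat1 described above, 23.3 kb, 13.9 kb and 13.3 kb from it in replicates 1, 2 and 3.

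**Figure D5:**
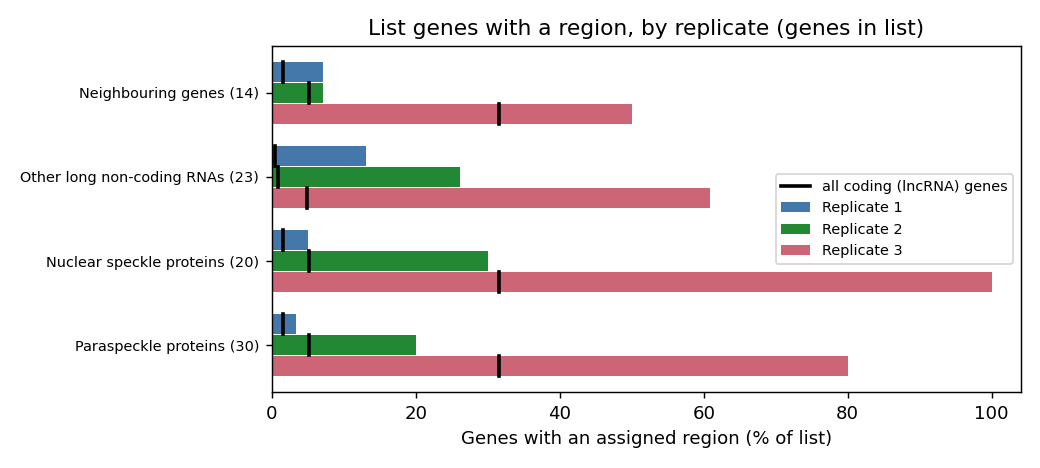
Share of each gene list with an assigned region (percent) in replicates 1, 2 and 3 (bars), with black ticks at the share of all coding genes, or of all long non-coding RNA genes for the long non-coding list; the number of genes is in brackets. In replicate 3 all 20 nuclear speckle genes and 24 of 30 paraspeckle genes have a region, and in replicate 1 each of these lists has 1 gene with a region.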

How the data were processed

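Runx1 ChIP-seq of spinal cord cells was deposited as 3 replicates of 1 group. Per the submitters' processing notes, the tools were Trimmomatic 0.38, FastQC, Bowtie2, SAMtools 1.9, Picard 2.18.26 and MACS2 2.1.2, with GRCm38. Their settings and any control library were not stated in the sources used here. The deposited lists, 1 per replicate, hold for each summit a score, a fold (a ratio to background), −log10 p and −log10 q from the authors' peak caller. Read depth is unknown. Each summit's fold and p were solved for a whole-number pileup k and background b, with fold (k + 1)/(b + 1) and a Poisson p, within 0.001 in −log10 p for 100% of summits. The lowest backgrounds were 2.23, 2.67 and 3.13 fragments. Starts are given from 1.

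Overlap meant at least 1 bp. Symbols were matched to RefSeq GRCm38.p6 for 92.4%, 93.0% and 89.9% of assigned names. Members and lists were chosen with earlier results of these data known. The 4 lists held 89 entries: Cyrano and Oip5os1 are 1 gene, and Gm26917 was not matched. Named genes were the members, the genes assigned in the window, up to 4 per list with regions in the most replicates and the 5 nearest by covered length, of which 1 is not reported here. No sequence was used for Neat1 or Gm20417. Alternatives were stricter limits, other assignments, merging, other overlap rules and leaving out replicates. The solver and the overlap recovered 100% of 1000 and 300 simulated cases. Software was scipy 1.17.1, pandas 2.3.3, matplotlib 3.10.9 and numpy 2.4.6 under Python 3.11.15.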

Additional observations from a re-analysis of the deposited data

How the results depend on the processing

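Of 74 alternative values, 47 stayed within 1.5 times the main one for counts, or within 1 SD over the replicates for lengths and folds. Some of the 47 could not have moved, so the tally does not measure stability. No region assigned to Malat1, Neat1 or Gm20417 lay outside the window, so position alone had to give the main count. Neat1, at 0 by symbol, stayed at 0 without any replicate. The SD over the replicates is wide for the covered length (11048 bp). At a fold of at least 5 the length fell from 10781 bp to 3740 bp in replicate 2 and from 23545 bp to 20560 bp in replicate 3. In replicate 1 it fell from 1544 bp to 948 bp (also 948 bp at q of at most 1e-05). The region lost there was the one upstream of Malat1 (fold 3.04, −log10 q 2.24). In replicate 2 the region across the Malat1 start (fold 4.25) was also lost at a fold of at least 5. At a fold of at least 5 the locus kept 2 regions in replicate 2 and 4 in replicate 3. By assigned symbol alone it kept 4 and 2, and with regions within 500 bp merged it had 5 and 5. The highest fold became 4.09 in replicate 2 and 4.60 in replicate 3 when the median over the summits of that region was used. Where 50% of both regions had to overlap, 0 regions of replicate 1 overlapped replicate 2 or 3, 0 of replicates 2 and 3 overlapped replicate 1, 1 of replicate 2 overlapped replicate 3 and 1 of replicate 3 overlapped replicate 2, since the wide regions exceed those they hold. Neat1 had a region in 3 replicates by gene body against 0 by symbol. At q of at most 1e-05, 1 paraspeckle, 2 nuclear speckle, 3 long non-coding and 0 neighbouring genes had a region in at least 2 replicates. With 1 replicate left out at a time, 1 to 6 paraspeckle, 1 to 6 nuclear speckle and 1 to 6 long non-coding genes had a region in both others (the protein lists had 1 gene without replicate 2 and 1 without replicate 3, the long non-coding list 3 and 1), and Gm20417 had a region in 1 to 2 replicates. Counts without replicate 2 or 3 were capped by the list genes with a region in replicate 1 (1, 1 and 3 in these lists). No paired analysis was possible because the 3 replicates form 1 group. Calls at low pileup are limited by depth, and a place without a region was not shown to lack binding.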
